A study of Homo sapiens with 4 samples.

Results

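The expression of 6 genes of zinc binding and transport was compared between human cells with and without extra U1 small nuclear RNA: the metallothionein genes MT1E, MT1X and MT2A, the metal-sensing transcription factor MTF1, the zinc exporter SLC30A1 and the metal importer SLC39A14. They were picked by symbol, as 6 of the 25283 rows of the count table, with their values in U1_OE and WT libraries already known, so their levels and their differences between the groups are given as a description without a test. RNA-seq was done on cells labelled as neurons, which had been differentiated from the human embryonic stem cell line H1 by way of neural progenitor cells and a maturation medium. The U1_OE group had 2 libraries of cells that received a lentiviral vector for overexpression of U1 snRNA, which pairs with 5′ splice sites at the start of splicing, and the WT group had 2 libraries of wild type cells with an empty vector. The stated exposure was 36 hours, and the treatment text of the WT samples names the overexpression vector as well, so the groups follow the titles and genotype labels. The labels do not say whether replicates were separate cultures, so any p-value below measures only the spread between these libraries, which may be technical. The promoter of the vector and the number of infected cells are not given in the sources used here, and U1 snRNA itself was not analysed here, so the overexpressed RNA was not checked.

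Metallothioneins are small proteins rich in cysteine that bind zinc, copper and cadmium and release zinc again. When zinc rises in the cell, MTF1 moves to the nucleus and binds metal response elements, short motifs in the promoters of the metallothionein genes and of SLC30A1, which encodes the transporter that pumps zinc out across the plasma membrane. SLC39A14, also called ZIP14, carries zinc, iron and manganese into the cell. In brain tissue metallothioneins are known above all from astrocytes, and fibroblasts and many other cells make them too.

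The libraries held 16713505 to 19057423 estimated counts each. They were led by collagen transcripts rather than neuronal ones: COL1A1, a chain of type I collagen, had 41460 and 39670 CPM in the U1_OE libraries and 29370 and 38310 CPM in the WT libraries (CPM, library-scaled counts with TMM factors). The neuronal markers were mixed. TUBB3, a beta-tubulin of young neurons, had 264 and 338 CPM in U1_OE and 159 and 104 CPM in WT. MAP2, a microtubule protein of dendrites, and the synaptic genes SNAP25 and SYT1 were measured in every library at no more than 8.18 CPM. The nuclear marker RBFOX3 had 0.148 and 0.0420 CPM in U1_OE and 0.269 and 0.180 CPM in WT, STMN2 had at most 0.318 CPM, and DCX, a microtubule protein of young neurons, was at 0 in U1_OE replicate 1 and WT replicate 1. Because collagens led and several defining markers were near 0, the markers bear out the label neuron only in part, mainly through TUBB3. The libraries are therefore called U1_OE and WT here. In these bulk libraries a change in the share of cells that express a gene and a change in RNA per cell cannot be told apart.

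The metallothionein genes lie in 1 cluster on chromosome 16 (GRCh38 coordinates of GENCODE release 29). MT2A spans chr16:56608199-56609497, MT1E chr16:56625475-56627112 and MT1X chr16:56682424-56684196, all on the plus strand. MT1G, the other metallothionein measured, lies on the minus strand between them. MTF1 lies on chromosome 1 at 37809567 to 37859620 and SLC30A1 on chromosome 1 at 211571568 to 211578742, both on the minus strand, and SLC39A14 on the plus strand of chromosome 8 at 22367249 to 22434129. MT1X overlaps the RNA gene AC026461.1 on the same strand, and MTF1 and SLC39A14 each overlap an RNA on the opposite strand. No strand-marking step is stated for these libraries, so it is not known whether reads of the opposite-strand neighbours were told apart. For AC026461.1, on the strand of MT1X, the strand would not separate the reads.

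**Figure D1:**
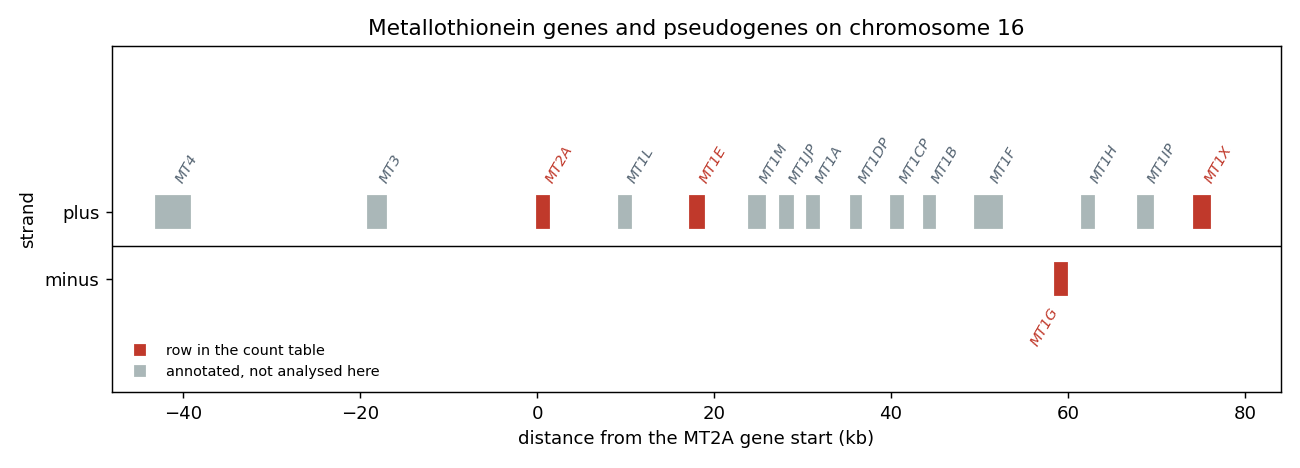
Metallothionein genes and pseudogenes of the chromosome 16 cluster by distance in kb from the start of MT2A, with plus-strand genes above the line and minus-strand genes below it. Red boxes are the 4 genes with a row in the count table, MT2A, MT1E, MT1G and MT1X, and grey boxes are annotated genes not analysed here.

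The coding sequences of the 3 metallothioneins are shown because their likeness bears on how reads are counted. They come from GENCODE release 29 transcripts on GRCh38. Each has 186 bases, with 61 codons before the stop codon, of which 20 encode cysteine. Capitals mark the 22 positions at which the 3 genes do not all carry the same base.
MT2A: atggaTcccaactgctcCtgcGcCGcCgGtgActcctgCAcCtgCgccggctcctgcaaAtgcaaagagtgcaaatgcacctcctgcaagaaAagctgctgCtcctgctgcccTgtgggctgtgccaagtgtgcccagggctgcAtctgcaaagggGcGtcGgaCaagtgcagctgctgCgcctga
MT1X: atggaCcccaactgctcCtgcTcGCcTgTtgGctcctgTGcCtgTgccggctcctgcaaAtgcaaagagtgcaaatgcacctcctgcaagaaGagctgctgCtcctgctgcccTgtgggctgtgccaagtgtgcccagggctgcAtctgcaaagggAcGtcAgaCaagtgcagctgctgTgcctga
MT1E: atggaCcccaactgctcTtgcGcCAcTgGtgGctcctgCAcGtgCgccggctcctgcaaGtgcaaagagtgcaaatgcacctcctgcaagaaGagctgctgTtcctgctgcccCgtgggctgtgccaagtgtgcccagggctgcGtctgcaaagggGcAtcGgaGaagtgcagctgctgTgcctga
MT1X and MT2A were identical at 92.5% of positions and shared a run of 63 bases without a difference. MT1E and MT2A were also identical at 92.5%, with a longest shared run of 32 bases, and MT1E and MT1X at 90.9%, with a run of 41 bases. A read that lies wholly inside such a run has more than 1 possible source. Only the 186 coding bases were compared and not the rest of the exons, so how many reads this touches is not known. The division of counts between these genes is thus uncertain, and their sum is given beside each of them.

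The stretches of 250 bases before the RefSeq gene start are shown for MT2A, MT1X and SLC30A1, because metal response elements in them are the known binding sites of MTF1. Their 7-letter core was searched as TGCACNC and TGCGCNC on both strands, and capitals mark the matches, which read as the reverse complement where they lie on the minus strand of the gene. The sequences are from the RefSeq promoter table on GRCh38.p14, 5′ to 3′ on the strand of the gene, from chr16:56608334-56608583 (plus) for MT2A, chr16:56682220-56682469 (plus) for MT1X and chr1:211579162-211579411 (minus) for SLC30A1.
MT2A: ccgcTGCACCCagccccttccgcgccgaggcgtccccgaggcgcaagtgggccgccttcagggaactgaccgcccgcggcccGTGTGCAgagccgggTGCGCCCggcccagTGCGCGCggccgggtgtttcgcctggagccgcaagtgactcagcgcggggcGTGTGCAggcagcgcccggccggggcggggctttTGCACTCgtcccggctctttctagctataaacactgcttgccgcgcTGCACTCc
MT1X: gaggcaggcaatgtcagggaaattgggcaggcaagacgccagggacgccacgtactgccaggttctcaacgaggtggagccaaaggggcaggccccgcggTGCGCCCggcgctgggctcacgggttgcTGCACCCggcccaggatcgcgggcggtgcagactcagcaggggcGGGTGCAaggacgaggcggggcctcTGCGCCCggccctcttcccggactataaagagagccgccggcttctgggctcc
SLC30A1: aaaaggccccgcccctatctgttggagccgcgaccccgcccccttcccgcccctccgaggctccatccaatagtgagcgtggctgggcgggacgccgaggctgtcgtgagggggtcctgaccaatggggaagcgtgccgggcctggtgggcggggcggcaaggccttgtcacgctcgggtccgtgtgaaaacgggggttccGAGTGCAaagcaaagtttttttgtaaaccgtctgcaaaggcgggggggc
The MT2A stretch held 7 core matches, that of MT1X 4, that of SLC30A1 1, and that of MTF1, which is not printed, 0. None of them overlapped another core match. Over the 35116 RefSeq promoters of the same length, 24.8% held at least 1 match, 0.37% at least 4 and 0.0313% at least 7. The MT2A stretch also held 1 match to the AP-1 motif TGACTCA, at -104 to -98 from the start, which 4.2% of promoters hold on either strand, and MT2A and MT1X each held a TATAAA box, found in 10.7% of promoters. Neither motif overlapped a core match. Of the 6 genes, 4 were matched to the promoter sequences used here, and MT1E and SLC39A14 were not. The stretches are placed by the RefSeq start, which differs from the GENCODE start of the gene spans given above. The MT2A stretch lies wholly inside the GENCODE span of MT2A, the MT1X stretch runs past the GENCODE start of MT1X, and the RefSeq start of SLC30A1 is upstream of its GENCODE start. A match is a description of the letters and not evidence of a bound site.

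**Figure D2:**
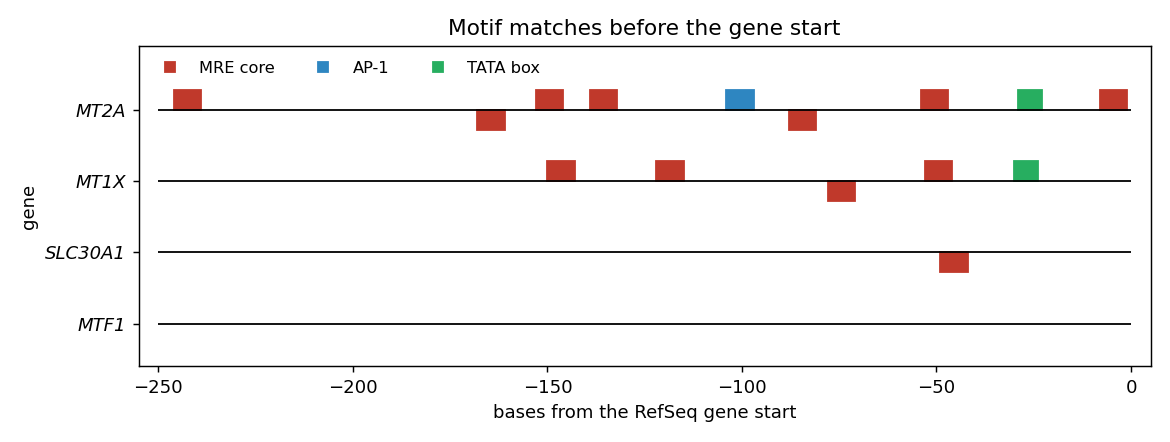
Motif matches in the 250 bases before the RefSeq start of 4 genes, with boxes above the line for the strand of the gene and below it for the opposite strand. MT2A has 7 core matches of the metal response element (MRE), MT1X 4, SLC30A1 1 and MTF1 0.

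All 6 genes were measured in every library and all passed the filter on low counts. In each of them both U1_OE libraries lay above both WT libraries, an arrangement found in 19.7% of the 17317 genes tested. The genes were chosen with this contrast in view, so nothing is read from that count. Their fitted log2 fold changes, U1_OE over WT, had a median of 0.81, beside -0.01 over all genes tested. The 3 metallothioneins had the larger differences and the larger spread between libraries, and the 3 other genes had smaller differences between closer replicates.

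MT2A, the most abundant human metallothionein in many cell types, had 520.4 and 779 CPM in the U1_OE libraries and 448 and 225 CPM in the WT libraries. The counts behind these levels were 8449.9 and 14852.3 in U1_OE and 7605.1 and 4066.6 in WT. The nearest libraries of the groups, U1_OE replicate 1 and WT replicate 1, differed 1.16-fold, and the farthest, U1_OE replicate 2 and WT replicate 2, 3.46-fold. The means were 650 ± 183 CPM in U1_OE and 336 ± 158 CPM in WT (SD, n = 2 each), a ratio of 1.93, and the fitted log2 fold change was 0.95. Both SDs were large beside the gap of the means. Without WT replicate 1 the log2 fold change was 1.55 and without WT replicate 2 it was 0.54, so the size of the difference rested on which WT library was used.

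MT1X, another inducible isoform, had 97.6 and 35.9 CPM in the U1_OE libraries and 9.77 and 24.1 CPM in the WT libraries. U1_OE replicate 1 stood far above the other 3 libraries, and U1_OE replicate 2 exceeded WT replicate 2 only 1.49-fold, while the widest pair differed 9.99-fold. The means were 66.7 ± 43.7 CPM in U1_OE and 16.9 ± 10.1 CPM in WT (SD, n = 2 each), and the fitted log2 fold change was 1.98. It was 1.10 without U1_OE replicate 1 and 2.77 without WT replicate 2.

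MT1E, an isoform that not every cell type expresses, had 38.1 and 21.3 CPM in the U1_OE libraries and 5.80 and 12.9 CPM in the WT libraries. The order of the libraries was that of MT1X, and the groups did not overlap. The means were 29.7 ± 11.9 CPM in U1_OE and 9.37 ± 5.05 CPM in WT (SD, n = 2 each), with a fitted log2 fold change of 1.66, which ranged from 1.19 to 2.35 when a library was left out.

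Summed over the 3 genes, which lessens the effect of dividing reads between them, the level was 656 and 836 CPM in the U1_OE libraries and 463 and 262 CPM in the WT libraries. The groups did not overlap in the sum, and the means of 746 ± 127 CPM in U1_OE and 363 ± 142 CPM in WT (SD, n = 2 each) gave a log2 ratio of 1.04. It was 1.51 without WT replicate 1 and 0.69 without WT replicate 2. The sum took 0.0637% and 0.0837% of all counts in U1_OE and 0.0461% and 0.0269% in WT. The abundant MT2A set this sum, so it says little of the other isoforms.

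The isoforms did not keep a fixed ratio. MT2A made up 79.3% and 93.2% of the summed level in the U1_OE libraries and 96.6% and 85.9% in the WT libraries, so the shares of the groups overlapped. Within each group the library with more MT2A had less MT1X and less MT1E: U1_OE replicate 2 and WT replicate 1 were the higher for MT2A, and U1_OE replicate 1 and WT replicate 2 the higher for MT1X and MT1E. The ratio of MT2A to MT1X thus was 5.33 and 21.7 in U1_OE and 45.8 and 9.35 in WT. The ratio of MT1X to MT1E varied less, with 2.56 and 1.68 in U1_OE and 1.68 and 1.86 in WT. Most of the mesenchymal markers listed, COL1A1, COL1A2, COL3A1, LUM, DCN, POSTN and THY1, had the same order of libraries within the groups as MT1X and MT1E. VIM had the order of MT2A instead. The share of all genes with either order was not counted. Over 8666 genes the differences between replicates 1 and 2 in U1_OE and in WT had a correlation of -0.26. Opposite orders in the groups were thus not particular to these markers. The list was chosen with earlier results of these data known, so nothing is read from the shared order. DCN, the proteoglycan decorin, had 1137 and 233 CPM in U1_OE and 308 and 704 CPM in WT. LUM, the related lumican, had 1888 and 741 CPM in U1_OE and 959 and 1431 CPM in WT. The part of these genes, or of the division of reads between paralogs, in the ratios was not tested.

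**Figure D3:**
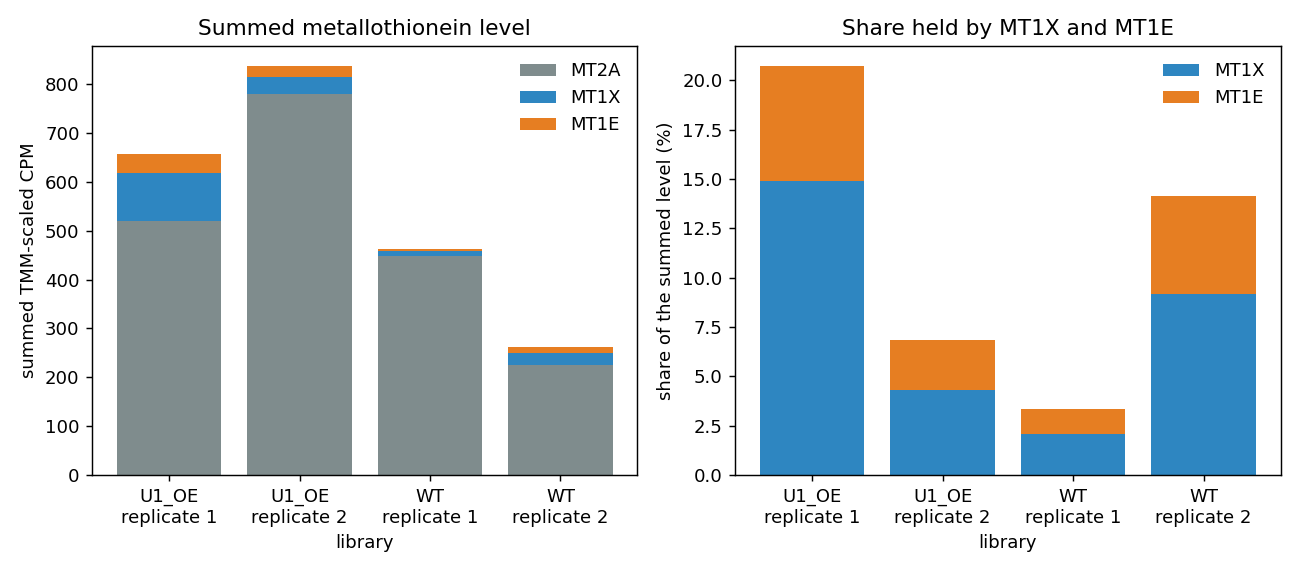
Left, TMM-scaled CPM of MT2A, MT1X and MT1E stacked for each library, and right, the share of that sum held by MT1X and MT1E in percent. The sum is 656 and 836 CPM in U1_OE and 463 and 262 CPM in WT, while the shares of the 2 minor genes are highest in U1_OE replicate 1 and WT replicate 2 and so do not divide the groups.

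The spread between replicates was wide for the metallothioneins. The values of each library were known when the genes were chosen, so the spread is no independent measure either. The WT replicates differed by 1.30 for MT1X, 1.16 for MT1E and 0.99 for MT2A on the log2 scale of levels, beside a median of 0.16 over the 8663 tested genes with a mean of at least 10 CPM and counts in every library. As large a difference or a larger one was found in 0.82%, 1.19% and 1.89% of those genes. The U1_OE replicates differed by 1.44, 0.84 and 0.58 for MT1X, MT1E and MT2A, beside a median of 0.22, and 1.85%, 6.82% and 14.3% of genes differed as much. SLC39A14 lay closer to these medians, with differences of 0.32 in U1_OE and 0.20 in WT, reached by 35.9% and 40.1% of genes, and MTF1 and SLC30A1 were below the level used. These are descriptions of 4 libraries.

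MT1G, a neighbouring isoform, had 13.6 counts in U1_OE replicate 1 and 0 counts in U1_OE replicate 2 and in both WT libraries, so it was too low to be tested. A count of 0 allows up to 3 counts, or 0.157 to 0.177 CPM in those 3 libraries, which covers counting error only. The other 8 metallothionein genes and the 9 pseudogenes of the lists used were not analysed here.

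MTF1, the sensor that switches these genes on when zinc is in excess, had 4.61 and 5.0 CPM in the U1_OE libraries and 4.09 and 4.505 CPM in the WT libraries. The lower U1_OE library lay only 1.02-fold above the higher WT library. The means were 4.81 ± 0.274 CPM in U1_OE and 4.30 ± 0.295 CPM in WT (SD, n = 2 each), with a fitted log2 fold change of 0.17. With library size alone as the scaling the groups overlapped, at 4.49 and 5.01 CPM in U1_OE and 4.08 and 4.63 CPM in WT. Only 69.4 to 95.4 counts stood behind each level, and MTF1 acts mainly through its location and binding, which RNA counts do not measure.

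SLC30A1, the plasma membrane zinc exporter and a known target of MTF1, had 10.1 and 12.1 CPM in the U1_OE libraries and 6.80 and 7.19 CPM in the WT libraries. Both U1_OE libraries were above both WT libraries, by 1.40-fold at the nearest and 1.78-fold at the farthest. The means were 11.1 ± 1.39 CPM in U1_OE and 6.99 ± 0.281 CPM in WT (SD, n = 2 each), and the fitted log2 fold change of 0.67 stayed between 0.53 and 0.80 when a library was left out. Of the 6 genes it had the largest gap of the groups relative to its spread between replicates.

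SLC39A14, the importer, had 33.6 and 41.8 CPM in the U1_OE libraries and 32.1 and 27.9 CPM in the WT libraries. U1_OE replicate 1 exceeded WT replicate 1 by only 1.05-fold. The means were 37.7 ± 5.83 CPM in U1_OE and 30.0 ± 2.996 CPM in WT (SD, n = 2 each), with a fitted log2 fold change of 0.33, which was 0.16 without U1_OE replicate 2. The gap between the nearest libraries of the groups was smaller than the difference between the U1_OE replicates.

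**Figure D4:**
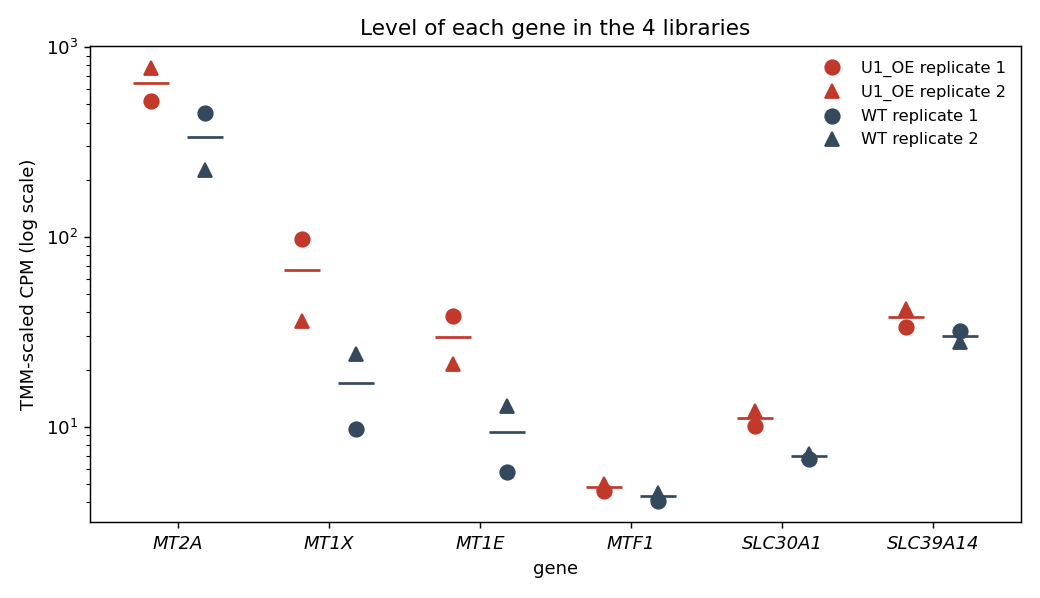
TMM-scaled CPM on a log axis for the 6 genes, with a circle for replicate 1, a triangle for replicate 2 and a line for the mean of the 2 libraries of a group. Both U1_OE libraries lie above both WT libraries for each gene, by 1.02-fold at the nearest for MTF1 and 1.64-fold for MT1E, and the replicates of MT2A lie in the opposite order to those of MT1X and MT1E.

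Per kb of exon, the order of levels was MT2A, MT1X, MT1E, SLC39A14, SLC30A1 and MTF1 in both groups. MT2A had 655 ± 184 CPM per kb in U1_OE and 339 ± 159 CPM per kb in WT, and MT1X had 81.1 ± 53.0 CPM per kb in U1_OE and 20.5 ± 12.3 CPM per kb in WT (SD, n = 2 each). MT1E had 28.2 ± 11.3 CPM per kb in U1_OE and 8.91 ± 4.80 CPM per kb in WT. In each of the 4 libraries MT1X lay above MT1E per kb, with 119 and 43.6 against 36.2 and 20.2 CPM per kb in U1_OE and 11.9 and 29.2 against 5.51 and 12.3 CPM per kb in WT. The values of the 2 genes overlapped between the WT libraries but not between the U1_OE libraries. SLC39A14 had 7.10 ± 1.10 CPM per kb in U1_OE and 5.65 ± 0.565 CPM per kb in WT, within the spread of MT1E in WT but not in U1_OE. SLC30A1 had 2.03 ± 0.253 CPM per kb in U1_OE and 1.28 ± 0.0514 CPM per kb in WT, and MTF1 had 0.603 ± 0.0343 CPM per kb in U1_OE and 0.539 ± 0.0370 CPM per kb in WT, each apart from its neighbours. The exon lengths used were 991 bases for MT2A, 823 for MT1X, 1052 for MT1E, 5307 for SLC39A14, 5474 for SLC30A1 and 7972 for MTF1. MT2A ranked 297 and 187 among all genes by CPM in the U1_OE libraries and 310 and 627 in the WT libraries.

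The rest of the zinc transport families was tested gene by gene within the fit over the whole table. These lists are what remained once SLC30A1 and SLC39A14 had been taken out with their values known, so their counts are not independent of that choice. With edgeR's quasi-likelihood test and p-values adjusted over all genes by the Benjamini-Hochberg method, 0 of 17317 genes (0%) had an adjusted p under 0.05, with 1572 at an unadjusted p under 0.05, and DESeq2 called 1.08% of 17440 genes. Of the other ZnT exporters, most of which move zinc from the cytosol outward or into organelles, 5 of 9 listed genes were tested. Of the tested genes 0 were called by edgeR or DESeq2, with 0 at an unadjusted edgeR p under 0.05. Their median log2 fold change was 0.04. SLC30A5, a transporter of the secretory pathway, had 49.3 and 42.1 CPM in U1_OE and 44.2 and 43.7 CPM in WT, and SLC30A9 had 38.1 and 49.7 CPM in U1_OE and 39.1 and 36.9 CPM in WT. Neither gene separated the groups.

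Of the other ZIP importers 9 of 13 listed genes were tested and 0 were called by edgeR or DESeq2, with 4 positive and 5 negative log2 fold changes and a median of -0.03. SLC39A7, which releases zinc from the endoplasmic reticulum, had 338 and 325 CPM in U1_OE and 328 and 313 CPM in WT, and SLC39A13, a transporter of the secretory pathway needed in connective tissue, had 165 and 132 CPM in U1_OE and 164 and 139 CPM in WT. Only SLC39A6, a plasma membrane importer, had an unadjusted edgeR p under 0.05 in this list, with 127 and 107 CPM in U1_OE and 92.9 and 87.2 CPM in WT, a log2 fold change of 0.38 and an edgeR adjusted p of 0.547. SLC39A8, the closest relative of SLC39A14, had 11.9 and 13.7 CPM in U1_OE and 12.4 and 10.5 CPM in WT, and its groups overlapped.

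**Figure D5:**
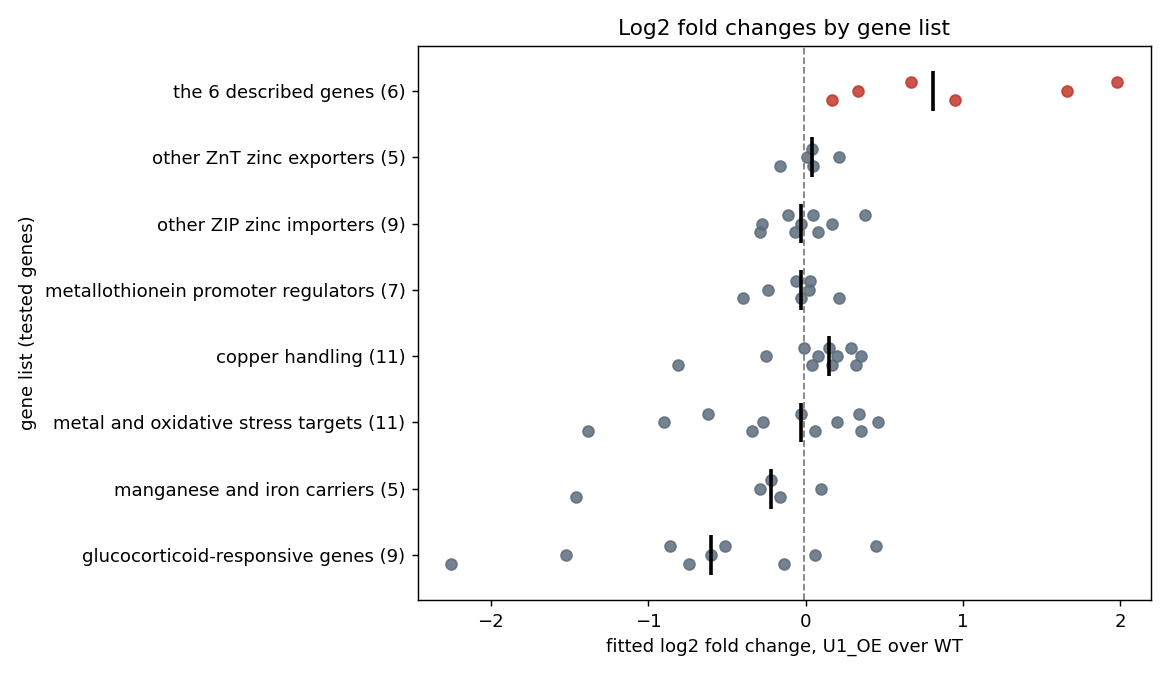
Fitted log2 fold changes, U1_OE over WT, of the tested genes in each list, with the number of genes in parentheses, a black line at the median of the list and a dashed line at the median of all genes, -0.01. The 6 described genes, in red, were chosen with these values known and have a median of 0.81, and the other zinc exporters and importers have medians of 0.04 and -0.03.

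Transcription factors and coactivators known to act on metallothionein promoters besides MTF1 were tested as 7 genes, of which 0 were called by edgeR or DESeq2, with a median log2 fold change of -0.03. USF2, a factor that binds E-boxes, had 52.8 and 50.3 CPM in U1_OE and 66.4 and 69.7 CPM in WT, a log2 fold change of -0.40 and an edgeR adjusted p of 0.500. NFE2L2, the factor NRF2 of the response to oxidants, had 55.3 and 64.5 CPM in U1_OE and 76.1 and 65.6 CPM in WT. Both genes lay lower in both U1_OE libraries than in both WT libraries, as did 22.1% of all genes tested.

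Genes that cadmium, oxidants or heat shock are known to induce differed in both directions without a call. Of 11 tested genes 0 were called by edgeR or DESeq2, 5 had positive and 6 negative log2 fold changes, and the median was -0.03. HMOX1, heme oxygenase and a classic target of heavy metals, had 38.0 and 37.0 CPM in U1_OE and 65.0 and 50.4 CPM in WT, with a log2 fold change of -0.62 and an edgeR adjusted p of 0.470. NQO1, a quinone reductase driven by NRF2, had 206 and 386 CPM in U1_OE and 716 and 393 CPM in WT. DNAJB1, a cochaperone of the heat shock response, had 108 and 102 CPM in U1_OE and 86.2 and 79.5 CPM in WT, with a log2 fold change of 0.34 and an edgeR adjusted p of 0.544. HMOX1 and NQO1 lay lower in both U1_OE libraries than in both WT libraries, as did 22.1% of all genes tested. DNAJB1 lay higher in both, as did 19.7%. Of the 11 genes 4 lay higher in this way and 4 lower, so the list had no common direction. Its relation to the metallothioneins was not tested.

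Metallothioneins also bind copper, and SLC39A14 also carries iron and manganese. Of 11 tested genes of copper handling 0 were called by edgeR or DESeq2, with a median log2 fold change of 0.15. The most abundant were SOD1, the copper and zinc superoxide dismutase, with 353 and 380.0 CPM in U1_OE and 364 and 330 CPM in WT, and the copper chaperone ATOX1, with 352 and 283 CPM in U1_OE and 319 and 233 CPM in WT. Of 5 carriers and regulators of manganese and iron, edgeR called 0 and DESeq2 1, which was lower in U1_OE. That gene was TFRC, the transferrin receptor, with 14.9 and 9.27 CPM in U1_OE and 39.3 and 26.95 CPM in WT (DESeq2 log2 fold change of -1.45, adjusted p = 0.0165). The DESeq2 call was lost without WT replicate 1 (adjusted p = 1.00), without WT replicate 2 (0.171) and without U1_OE replicate 2 (0.184). The manganese and calcium pump ATP2C1 had 44.3 and 50.01 CPM in U1_OE and 46.8 and 41.4 CPM in WT, and the iron exporter SLC40A1 31.3 and 23.2 CPM in U1_OE and 25.7 and 41.1 CPM in WT.

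Markers of other cells were read beside these values. Of 8 listed astrocyte markers 7 were measured and 4 tested, and their summed level was 1010 CPM in both U1_OE libraries and 1190 and 1410 CPM in the WT libraries, nearly all of it from the gap junction gene GJA1, which fibroblasts also express, with 973 and 980 CPM in U1_OE and 1178 and 1384 CPM in WT. GFAP, the defining filament protein of astrocytes, had 0.931 and 1.74 CPM in U1_OE and 0.596 and 0.815 CPM in WT, and AQP4 was at 0 in U1_OE replicate 1 and WT replicate 2. The glutamate transporter SLC1A3 had 25.6 and 20.4 CPM in U1_OE and 6.84 and 18.8 CPM in WT. Angiotensinogen, AGT, had 9.35 and 3.12 CPM in U1_OE and 2.06 and 2.09 CPM in WT. GFAP, SLC1A3 and AGT lay higher in both U1_OE libraries, as did 19.7% of all genes tested, and GJA1 lower, as did 22.1%. GFAP was barely apart, with 15.1 counts in U1_OE replicate 1 and 14.7 in WT replicate 2. The other measured astrocyte markers overlapped between the groups. The 8 mesenchymal markers, all measured and tested, summed to 78800 and 69400 CPM in U1_OE and 57100 and 75000 CPM in WT. Of them DESeq2 called POSTN, a matrix protein, higher in U1_OE (log2 fold change 1.25, DESeq2 adjusted p = 0.00938), a call that was kept only without WT replicate 2 when a library was left out. THY1, a fibroblast surface protein, had 693 and 585 CPM in U1_OE and 315 and 450.0 CPM in WT. Of the 8 genes 4, COL1A1, POSTN, THY1 and VIM, lay higher in both U1_OE libraries than in both WT libraries. That arrangement was found in 19.7% of all genes tested, and the nearest libraries for COL1A1 were close, at 39670 and 38310 CPM. The other 4, COL1A2, COL3A1, DCN and LUM, overlapped between the groups. The list was chosen with earlier results of these data known, so nothing is read from this count. Of 8 neuronal markers 7 were measured, with sums of 282 and 357 CPM in U1_OE and 180 and 118 CPM in WT. TUBB3, a beta-tubulin, made up most of these sums and was called by DESeq2 (log2 fold change 1.21, adjusted p = 0.00134) except without WT replicate 2 (0.354), and the next, the synaptic SNAP25, had 8.18 and 6.65 CPM in U1_OE and 6.76 and 5.53 CPM in WT. Of 6 markers of microglia and blood 4 were measured, with sums of 72.3 and 82.2 CPM in U1_OE and 49.2 and 41.5 CPM in WT, mostly from CD68, a lysosomal protein that fibroblasts contain as well, while AIF1 had at most 1.82 CPM and TYROBP was at 0 in 3 libraries. The part of any of these cell markers in the metallothionein levels was not tested.

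The genes nearest to the mean profile of MT1E, MT1X and MT2A over the 4 libraries were sought among 8662 tested genes. These had a mean of at least 10 CPM, and the measure was the root mean square distance between centred log2(CPM + 1) profiles. That mean profile was 1.02 and 0.47 in the U1_OE libraries and -0.96 and -0.54 in the WT libraries. The single metallothioneins departed from it. MT2A had 0.21 and 0.79 in U1_OE and -0.01 and -1.0 in WT, and MT1X had 1.65 and 0.23 in U1_OE and -1.55 and -0.33 in WT. A gene near the mean is thus not near each metallothionein. Nearest to that mean profile were the membrane metalloprotease MMP16, at a distance of 0.115, and the microfibril gene MFAP2 (0.136). Next came the protein C receptor PROCR (0.142), the Notch receptor NOTCH3 (0.180) and the latent TGF-beta binding protein LTBP1 (0.187). The median distance over the genes compared was 0.784. MMP16 had 23.5 and 17.2 CPM in U1_OE and 6.15 and 9.32 CPM in WT. In all 5 genes U1_OE replicate 1 was the highest library, as it was in the mean profile used for the search. It was the highest for MT1X and MT1E but not for MT2A. With 4 libraries such a likeness is a description and says nothing of shared control.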

How the data were processed

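RNA-seq of 4 libraries, 2 of U1_OE cells and 2 of WT cells, was used. The authors deposited estimated counts per gene, not normalised, which mostly are not whole numbers: only 1.99% of the nonzero values are whole to within 0.01. The origin of the fractions is not stated. Per the submitters' processing notes the reads were handled with hg38 and with DESeq2, featureCounts, STAR and Trim Galore, whose roles and versions are not given. Where shared reads were split between paralogs, the value of each metallothionein depends on that split.

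After rounding, the counts were tested in R 4.3.3 with edgeR 4.0.16 (filterByExpr, TMM, quasi-likelihood test, Benjamini-Hochberg adjustment over 17317 genes, threshold 0.05). Levels are TMM-scaled CPM computed from the unrounded counts. Errors are SDs over 2 libraries, and the depth of 16713505 to 19057423 counts matters most for low genes such as MTF1. DESeq2 1.42.0, limma-voom (limma 3.58.1), RLE and library size scaling, other filters, a replicate block and leaving out each library were the alternatives. Leaving libraries out under DESeq2 was added after its calls were seen. On a single draw of simulated counts with known changes edgeR and DESeq2 recovered the size of the changes. However, genes left unchanged made up a larger share of the calls than the threshold sets, more so with DESeq2. DESeq2 calls are given with that limit. A single draw does not measure the error rate of either tool in these libraries. Groups follow the sample titles.

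The 6 genes and all gene lists were chosen with earlier results of these data known. Named list genes are the 2 of highest mean CPM in each list and up to 3 with the smallest edgeR p, where that p was under 0.05 or DESeq2 called the gene. SLC39A8, RBFOX3, DCX, MAP2, SYT1, STMN2, DCN, LUM, COL3A1, VIM, GFAP, AQP4 and TYROBP were named outside this rule, after their values were seen. Gene spans and exon lengths come from GENCODE release 29. An exon length is the merged length over the basic protein-coding transcripts of a gene, which can exceed that of a single transcript.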

Additional observations from a re-analysis of the deposited data

How the results depend on the processing

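Each of the 6 genes kept a positive log2 fold change, U1_OE over WT, in all 11 alternatives. The genes were chosen with their values known, and both U1_OE libraries lay above both WT libraries in each. Leaving out a library could therefore hardly change the sign, and the kept sign is no support for a difference. The ranges were 1.19 to 2.35 for MT1E, 1.10 to 2.77 for MT1X, 0.54 to 1.55 for MT2A, 0.11 to 0.24 for MTF1, 0.53 to 0.80 for SLC30A1 and 0.16 to 0.49 for SLC39A14, and both ends came from leaving out a library. The median over the 6 genes was 0.81 and lay between 0.58 and 0.95 when a library was left out. The log2 ratio of the summed metallothioneins was 1.04, and 0.69 to 1.51 when a library was left out. The quasi-likelihood test called 0 genes, also in every alternative made with it or with limma-voom, whereas DESeq2 called 189 genes, 107 higher and 82 lower. Of the tested list genes outside the 6, the quasi-likelihood test called 0 of 75 and DESeq2 5 of 76. Over all genes DESeq2 called 1.08% of 17440. The lists were chosen with earlier results of these data known, so nothing is read from these counts. With a library left out DESeq2 called 55 to 322 genes and 2 to 5 list genes, with the lowest count over all genes without WT replicate 1 and the highest without U1_OE replicate 2. The replicate block called 0 genes too, with 1072 at an unadjusted p under 0.05 in place of 1572. Libraries of equal replicate number did not deviate together: the differences between replicates 1 and 2 in U1_OE and in WT had a correlation of -0.26 over 8666 genes. That value cannot exclude a batch shared between the groups, and the labels state none. Over all genes the median log2 fold change was -0.01, against 0.01 under RLE factors and -0.04 when only library size was used. With library size alone MTF1 did not separate the groups. Each SD rests on 2 libraries, and few counts add error for MTF1 and MT1G.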

Other observations

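Genes known to respond to glucocorticoids, hormones that also induce metallothioneins, were read as a separate list of 10 genes, of which 9 were tested. By edgeR's quasi-likelihood test 0 were called, with 5 at an unadjusted p under 0.05. DESeq2 called 2, both lower in U1_OE, beside 1.08% of all genes it tested. The list was chosen with earlier results of these data known, so its counts, median and p-values are a description and no independent support. Of the 9 tested genes 7 had a negative log2 fold change, with a median of -0.60, beside -0.01 over all genes tested. The called genes were DDIT4, an inhibitor of mTORC1, with 39.8 and 36.9 CPM in U1_OE and 101 and 119 CPM in WT (DESeq2 adjusted p = 9.02e-10), and KLF9, a zinc finger factor, with 1.22 and 2.27 CPM in U1_OE and 7.45 and 9.28 CPM in WT (DESeq2 adjusted p = 0.0214). DDIT4 kept its call without each library in turn, with a DESeq2 adjusted p of 7.11e-06 to 0.0412, and KLF9 kept it only without U1_OE replicate 2. SGK1, a serum and glucocorticoid regulated kinase, had 113 and 119 CPM in U1_OE and 161 and 226 CPM in WT, with a log2 fold change of -0.74 and an edgeR adjusted p of 0.466. ERRFI1, a feedback inhibitor of the EGF receptor, had 54.6 and 149.5 CPM in U1_OE and 116 and 109 CPM in WT, and its groups overlapped. The 3 metallothioneins thus lay higher in U1_OE while most of this list lay lower, and the difference in direction was not tested.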
